A study of Mus musculus with 20 samples.

Results

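The comparison described here is between CD45- cells of BRAF-driven mouse melanomas with and without deletion of p38α. It rests on 6 of the 20 arrays of the study, chosen by their titles: 3 labelled B CD45- and 3 labelled B;p38α CD45-, and it covers 19504 genes. Mice of both genotypes carried Tyr::CreERT2, a tamoxifen-activated recombinase driven by a melanocyte promoter, together with the BrafCA/CA allele, and B;p38α mice also carried p38αlox/lox. All mice received 4-hydroxytamoxifen on the skin, at 5 mg/ml, on postnatal days 2.5 and 3.5, which switched on BrafV600E in melanocytes, and a single UVB dose of 6.24 kJ/m2 on day 3.5. Tumors were taken when they reached endpoint size, and the labels used here do not give the age at that time. For the CD45- arrays, fresh tumors were digested and CD45+ immune cells were drawn out with magnetic beads. The titles call the remaining population tumor/stroma, although leukocyte genes were still detected in it, as described below. The stroma keeps intact p38α alleles in both genotypes, since the recombinase is expressed in melanocytes. The other arrays, from complete tumors (5 B and 3 B;p38α) and CD45+ cells (3 and 3), serve only as a comparison. The titles call the arrays biological replicates but do not tie each to a separate mouse, and the p-values accordingly measure the spread between these arrays alone.

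p38α, encoded by Mapk14, is a stress-activated protein kinase. Kinases of the MAP2K family phosphorylate it in response to cytokines, UV light and osmotic stress, and it acts through kinases such as MK2, which stabilises messenger RNAs of inflammatory cytokines, and through transcription factors. In melanocytes p38 signalling is also known for raising pigmentation genes through MITF, and BRAF V600E signals through the parallel ERK branch.

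Because near-identical gene copies led one side of the comparison, the sequences just upstream of 3 of them are shown. Serpina1a, Serpina1b and Serpina1e encode alpha-1 antitrypsin, a serine protease inhibitor made mainly by the liver. The 150 bases before each start site, from RefSeq on GRCm38.p6, lie on the minus strand at chr12:103863620-103863769, chr12:103738190-103738339 and chr12:103956898-103957047. Capitals mark GTTAAT, the half-site letters of the liver transcription factor HNF1.
Serpina1a: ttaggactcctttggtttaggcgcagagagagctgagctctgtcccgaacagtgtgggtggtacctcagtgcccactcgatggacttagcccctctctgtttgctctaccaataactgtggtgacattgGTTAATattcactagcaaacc
Serpina1b: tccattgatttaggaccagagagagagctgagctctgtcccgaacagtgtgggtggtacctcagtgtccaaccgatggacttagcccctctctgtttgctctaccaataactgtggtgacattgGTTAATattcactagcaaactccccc
Serpina1e: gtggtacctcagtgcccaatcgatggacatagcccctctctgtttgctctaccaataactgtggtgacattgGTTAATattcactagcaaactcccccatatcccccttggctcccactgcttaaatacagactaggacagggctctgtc
Each window held the motif 1 time, searched on both strands, and 1218 of 32851 mouse promoter windows of this length (3.71%) held it. Over longer windows that also take in bases after the start, Serpina1a and Serpina1b were identical at 94.2% of aligned bases, Serpina1a and Serpina1e at 95.9%, and Serpina1b and Serpina1e at 98.4%. Gaps were left out of these shares, 16 in the first pair and 114 and 104 in the pairs with Serpina1e. Transcript and probe sequences were not compared, so whether the array's probes separate these transcripts was not tested. The 3 genes are not counted as independent of each other.

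Values are log2 expression from the deposited RMA table, and a difference is the B;p38α mean minus the B mean. Array medians in the CD45- arrays ran from 6.75 to 6.99. B CD45- replicate 1 stood apart from the rest. Its interquartile range was 2.95, against 3.41 to 3.89 in the other 19 arrays, and its correlation with the other 5 CD45- arrays was 0.868 to 0.912, against 0.952 to 0.975 among those 5. Many results are given with and without it, but not all that rest on it.

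The targeted gene, Mapk14, was read at 9.53, 9.99 and 9.86 in B arrays and at 9.58, 9.54 and 9.79 in B;p38α arrays. These ranges overlapped. The difference was -0.16 (95% interval -0.67 to 0.36), with a 2-sided exact permutation p of 0.4, where 3 arrays against 3 cannot give less than 0.1. No source used here places the probes relative to the floxed exons, and the stromal cells keep the gene, so this value does not check the genotype labels.

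Between CD45- cells of the 2 genotypes, 2 genes passed the threshold. Slc38a4, a sodium-coupled transporter of neutral amino acids and an imprinted gene, rose in B;p38α arrays, and Serpina1a fell. These were the only 2 of 19504 genes (0.0103%) with an adjusted p under 0.05 in limma after Benjamini-Hochberg adjustment, 1 in each direction (0.00513%). At an unadjusted limma p under 0.05, 682 genes (3.50%) had a higher and 637 (3.27%) a lower mean in B;p38α. For a count of separated groups, every B;p38α array lay above every B array in 2067 genes (10.6%) and below in 1046 (5.36%). Without B CD45- replicate 1 these shares were 14.4% and 9.28%. The mean was higher in B;p38α in 55.8% of genes, or 53.6% without that array, and lower in 44.2%. The median difference over all genes was 0.05.

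Slc38a4 was read at 5.30, 4.98 and 5.35 in B arrays and at 10.52, 10.30 and 9.58 in B;p38α arrays. The groups were more than 4 log2 units apart at their nearest arrays. The difference was 4.92 (SE 0.30, 95% interval 4.22 to 5.62, 30.3-fold), with an adjusted p of 0.00643 in limma with Benjamini-Hochberg adjustment. Serpina1a was read at 12.22, 11.13 and 11.58 in B arrays and at 6.05, 5.99 and 6.10 in B;p38α arrays. The 3 B;p38α values were nearly the same, with an SD of 0.06, while B arrays had an SD of 0.55. The difference was -5.60 (SE 0.30, 95% interval -6.31 to -4.89, 48.5-fold lower), with an adjusted p of 0.00606 in the same limma fit with Benjamini-Hochberg adjustment. Both calls depend on the fit. With all 6 groups of the study sharing one estimate of spread, the adjusted p was 0.0752 for Slc38a4 and 0.0567 for Serpina1a (limma, Benjamini-Hochberg), and without B CD45- replicate 3 both were 0.0704, at nearly the same differences. Without B CD45- replicate 2 that of Slc38a4 was 0.0829.

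**Figure D1:**
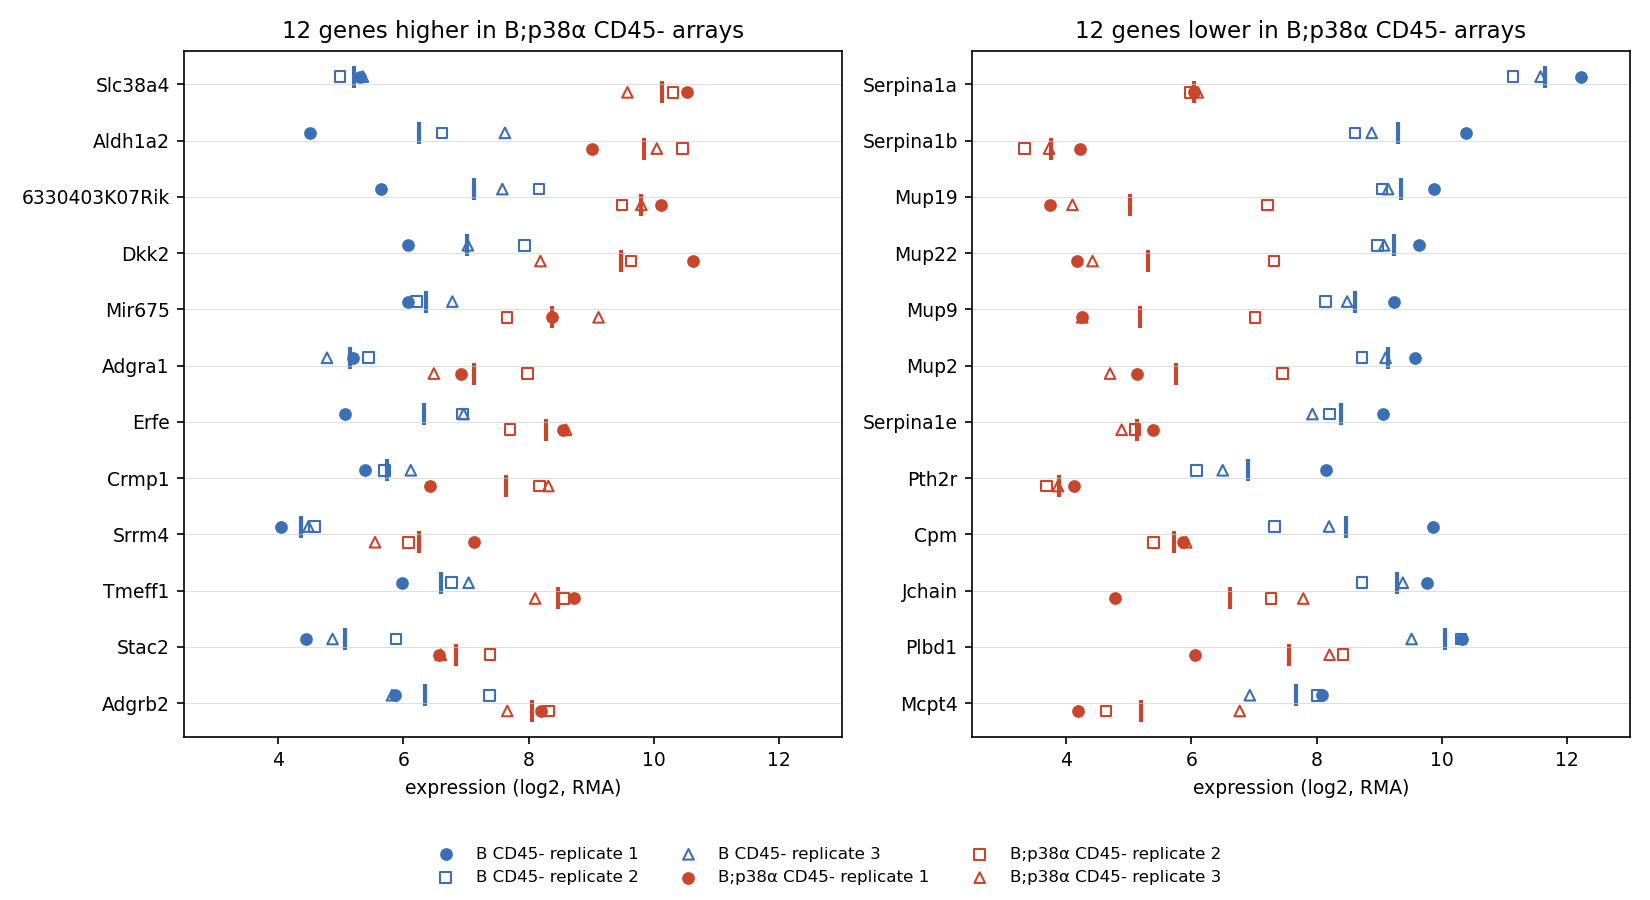
Log2 expression (x axis) of 12 genes with higher and 12 with lower means in B;p38α CD45- arrays. They were chosen by size of difference among genes with an unadjusted limma p under 0.01 whose groups do not overlap. Symbols are single arrays, filled circles for replicate 1, open squares for replicate 2 and open triangles for replicate 3, in blue for B and red for B;p38α, and vertical ticks are group means. Only Slc38a4 and Serpina1a passed the threshold, and the Mup genes in B;p38α replicate 2 sit between the other B;p38α arrays and the B arrays.

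Other members of the secreted liver-type genes had lower means too. The list of major urinary proteins and serpins, in which Mup genes encode small lipocalins that carry pheromones and are made mainly in liver, had 14 measured members. In 13 the mean was lower in B;p38α and in 9 every B;p38α array was below every B array, where 44.2% and 5.36% of all genes did so. One member, Serpina1a, passed, and the list's median difference was -2.50, against 0.05 over all genes. This list was drawn up with results of these arrays known, and its members share sequence.

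Serpina1b was read at 10.39, 8.61 and 8.88 in B arrays and at 4.22, 3.34 and 3.73 in B;p38α arrays. The groups did not overlap, and the difference was -5.53 (SE 0.49), with an adjusted p of 0.0635 in limma with Benjamini-Hochberg adjustment. Without B CD45- replicate 1 the difference was -4.99 and this adjusted p was 0.0327. Serpina1e was read at 9.05, 8.20 and 7.93 against 5.39, 5.10 and 4.89, a difference of -3.27 (SE 0.33) with an adjusted p of 0.114 in the same limma fit. Serpina3n, a related acute-phase inhibitor that is also made outside the liver, was read at 12.16, 11.93 and 11.64 against 10.43, 9.50 and 10.60. Its groups did not overlap either, and its difference was -1.73, with an adjusted p of 0.675 (limma, Benjamini-Hochberg). Every gene first named from here on also had an adjusted p of 0.675 or more in that fit, so their values are descriptions.

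Among the major urinary proteins, Mup19 was read at 9.87, 9.05 and 9.14 in B arrays and at 3.75, 7.22 and 4.10 in B;p38α arrays. The groups did not overlap, and B;p38α replicate 2 lay about 3 log2 units above the other B;p38α arrays. Mup22, Mup9 and Mup2 had differences of -3.93, -3.45 and -3.37, and B;p38α replicate 2 was again the highest of its group, at 7.32, 7.01 and 7.45. The same longer windows of Mup2, Mup9 and Mup19 were identical at 98.6% to 99.3% of aligned bases. Whether these rows read the same transcripts was not tested. Without B;p38α replicate 2, Mup19 (difference -5.43) and Mup22 (-4.93) each had an adjusted p of 0.0346 in limma with Benjamini-Hochberg adjustment. Outside these families, Pth2r, Cpm and Plbd1 were also among the named genes with lower means. Their differences were -3.02 (SE 0.52), -2.74 (SE 0.60) and -2.49 (SE 0.63), each without overlap.

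Liver Mup levels are known to differ between the sexes, so the 3 measured Y-linked genes were averaged per array. The mean was 6.79, 8.60 and 2.79 in B arrays and 3.32, 8.81 and 3.30 in B;p38α arrays. The B;p38α array with the higher Mup levels was thus the only one of its group with high Y-linked values. Other groups did not show this order. Among B arrays, Mup19 was 9.14 in replicate 3, with the lowest Y-linked mean, and 9.05 in replicate 2, with the highest. In B complete tumors Mup19 was 10.46 and 11.94 in replicates 1 and 4, with high Y-linked means, and 12.81, 9.79 and 10.90 in the others. With the Y-linked mean as a covariate the Mup19 difference was -4.03, and the cause of the Mup pattern was not tested. Alb, which encodes albumin, the defining product of hepatocytes, was low in both groups, at 5.80, 5.34 and 4.79 in B arrays and 5.32, 5.04 and 4.80 in B;p38α arrays.

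Genes with higher means in B;p38α after Slc38a4 were led by Aldh1a2, the enzyme that makes retinoic acid from retinaldehyde. It was read at 4.51, 6.61 and 7.62 in B arrays and at 9.01, 10.46 and 10.05 in B;p38α arrays. The groups did not overlap, although B arrays spanned about 3 log2 units. The difference was 3.59 (SE 0.79), and 2.72 without B CD45- replicate 1. Aldh1a1, a related enzyme, had the opposite sign, at 9.70, 10.66 and 11.19 in B arrays and 8.30, 7.32 and 9.84 in B;p38α arrays, a difference of -2.03 with overlapping groups. Over the 15 measured genes of retinoic acid metabolism and response, 5 had higher and 10 lower means, with a median difference of -0.13, and -0.22 without B CD45- replicate 1.

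The uncharacterised gene 6330403K07Rik was read at 5.64, 8.17 and 7.58 in B arrays and at 10.11, 9.49 and 9.80 in B;p38α arrays, a difference of 2.67 (SE 0.62). Dkk2, a secreted modulator of WNT receptors, was read at 6.07, 7.93 and 7.03 against 10.62, 9.63 and 8.19, a difference of 2.47 (SE 0.69). In both genes B replicate 1 was the lowest array, and the groups did not overlap. The WNT pathway list as a whole had 11 of 17 members with a higher mean, near the 55.8% of all genes, and a median difference of 0.18, or 0.52 with the general leukocyte level as a covariate. Of its other members, Sfrp2, a secreted WNT antagonist, had a difference of 1.26 and Wnt4, a ligand, one of -1.11.

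Of the remaining named genes with higher means, Crmp1 and Srrm4 are best known from neurons. Crmp1, a regulator of axon guidance and the cytoskeleton, was read at 5.38, 5.70 and 6.12 in B arrays and at 6.43, 8.17 and 8.31 in B;p38α arrays. Srrm4, a splicing regulator of neural microexons, was read at 4.05, 4.58 and 4.48 against 7.13, 6.08 and 5.55. In neither gene did the groups overlap. Tmeff1 (difference 1.87, SE 0.33), Stac2, which binds calcium channels (1.78, SE 0.42), and the adhesion G protein-coupled receptors Adgra1 (1.99, SE 0.41) and Adgrb2 (1.70, SE 0.45) were separated in the same direction. So was Erfe, which encodes the iron-regulating hormone erythroferrone (1.96, SE 0.55). It was read at 5.07, 6.94 and 6.96 against 8.55, 7.70 and 8.60, with B replicate 1 lowest.

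Imprinted genes made up a further group. Of 13 measured imprinted growth genes, 9 had a higher mean in B;p38α and in 5 every B;p38α array was above every B array, where 10.6% of all genes did so. Slc38a4 is a member and the only one that passed. The median difference was 0.60, and 0.34 without B CD45- replicate 1. Averaged over the list, B arrays were at 8.10, 7.95 and 8.39 and B;p38α arrays at 8.71, 8.92 and 9.36, with no overlap. Peg3, a paternally expressed zinc finger gene, was read at 7.51, 7.69 and 8.56 in B arrays and at 9.20, 9.61 and 10.00 in B;p38α arrays, a difference of 1.68 (SE 0.35) without overlap. Plagl1, a zinc finger regulator of other imprinted genes, was read at 7.23, 6.79 and 7.35 against 7.54, 8.56 and 8.56, a difference of 1.10. Members with a difference near 0 included Sgce (-0.02), Cdkn1c (0.03) and Peg10 (-0.05), and Igf2, a fetal growth factor, had -0.35 with overlapping groups.

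The row annotated as Mir675 was read at 6.07, 6.21 and 6.78 in B arrays and at 8.36, 7.66 and 9.12 in B;p38α arrays. The groups did not overlap, and the difference was 2.03 (SE 0.40). In RefSeq the miR-675 hairpin lies inside the imprinted H19 transcript on chromosome 7, and the row may read that host transcript, since which one its probes match was not settled here. The mature products are shown because the row bears their name, with the seed (bases 2 to 8) in capitals. The arrays were hybridised with cDNA made from total RNA, so the value is not a measure of either mature product.
mmu-miR-675-5p: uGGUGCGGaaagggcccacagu
mmu-miR-675-3p: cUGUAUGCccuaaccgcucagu

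Leukocyte genes had lower means in B;p38α CD45- arrays. All 12 general leukocyte markers had a lower mean and 10 of them were separated, where 5.36% of all genes were separated downwards. None passed, and the median difference was -1.53. Averaged over the list, B arrays were at 9.03, 8.88 and 8.66 and B;p38α arrays at 6.13, 7.73 and 8.24, so the groups did not overlap but B;p38α replicate 1 was far lower than the other B;p38α arrays. Ptprc, which encodes CD45 itself, was read at 9.95, 9.66 and 9.67 in B arrays and at 6.80, 8.37 and 8.63 in B;p38α arrays. The same 12 markers averaged 10.80 to 10.98 in B CD45+ arrays and 10.37 to 11.06 in B;p38α CD45+ arrays, so every CD45- array was below every CD45+ array and leukocyte RNA was still detected in the CD45- arrays. In complete tumors the list averaged 8.62 to 9.63 in B and 8.70 to 8.97 in B;p38α arrays, so those groups overlapped. B CD45- levels lay within the range of B complete tumors. MHC class II presentation genes also overlapped in complete tumors, at 8.30 to 9.66 against 8.79 to 9.25. Macrophage and monocyte genes barely did not, at 9.82 to 10.29 against 8.98 to 9.81. In bulk samples, fewer leukocytes in the tumor, fewer left after the bead step and less RNA per leukocyte cannot be told apart.

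Of the leukocyte lists, macrophage genes had the lowest median difference. All 16 macrophage and monocyte genes had lower means, 7 were separated, beside 5.36% of all genes, and none passed, with a median difference of -1.75. Mrc1, the mannose receptor, was read at 10.46, 10.05 and 9.91 in B arrays and at 5.16, 7.82 and 9.06 in B;p38α arrays. Ccr2, the receptor that draws monocytes into tissue, was read at 9.32, 9.76 and 9.47 against 5.34, 8.15 and 8.17. Neither gene overlapped between groups, and in both B;p38α replicate 1 was lowest. All 9 MHC class II presentation genes had lower means, 5 without overlap beside the same 5.36%, led by H2-Eb1 (-2.64) and H2-Ab1 (-2.22). Mast cell genes had lower means in 10 of 10, led by the protease Cpa3 (-3.39), which overlapped between groups, and 1 of the 10, near the share over all genes, was separated, Mcpt4 at 8.08, 8.01 and 6.93 against 4.19, 4.63 and 6.77.

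Lymphocyte, dendritic cell and neutrophil lists had smaller median differences. The 12 T cell genes all had lower means, with a median difference of -0.50, led by the interleukin receptor Il7r (-1.72). Without B CD45- replicate 1 the T cell median was -0.41, and 2 of the 12 had higher means. Of 9 NK cell genes, 7 had lower means, with a median of -0.27, and -0.30 without that array. Dendritic cell genes had lower means in 10 of 12, with a median of -0.47, and -0.30 without B CD45- replicate 1, led by the cross-presenting cell receptor Xcr1 at 5.54, 6.44 and 6.05 against 4.08, 4.62 and 4.78. Among 8 B cell genes the median difference was -0.15, and 0.01 without B CD45- replicate 1. Jchain, which joins immunoglobulin chains in plasma cells, was the exception in that list, at 9.77, 8.72 and 9.38 against 4.78, 7.27 and 7.79, a difference of -2.68 (SE 0.76). Neutrophil genes were divided, with 8 of 15 higher and a median difference of 0.01, or 0.49 with the general leukocyte level as a covariate.

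Chemokines, the secreted attractants of leukocytes, had lower means in 20 of 26 genes, with a median difference of -0.53. Ccl9 was read at 11.16, 9.97 and 9.75 in B arrays and at 7.94, 7.97 and 8.85 in B;p38α arrays, a difference of -2.04 without overlap, and Ccl12 had -2.03 with overlap. Macrophages themselves express several of these genes. The general leukocyte level did not overlap between genotypes, so with 6 arrays a fit that holds it as a covariate cannot separate it from genotype. This limit holds wherever that covariate is used here. With it, the chemokine median was 0.16, the T cell median -0.10 and the dendritic cell median -0.14. The mast cell median was -0.25 and the MHC class II median -0.15. The median of major urinary proteins and serpins was -2.28 and that of imprinted growth genes 0.65. The single differences were 4.37 for Slc38a4 and -5.52 for Serpina1a. In that fit neither gene passed, with an adjusted p of 0.297 for each (limma, Benjamini-Hochberg).

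**Figure D2:**
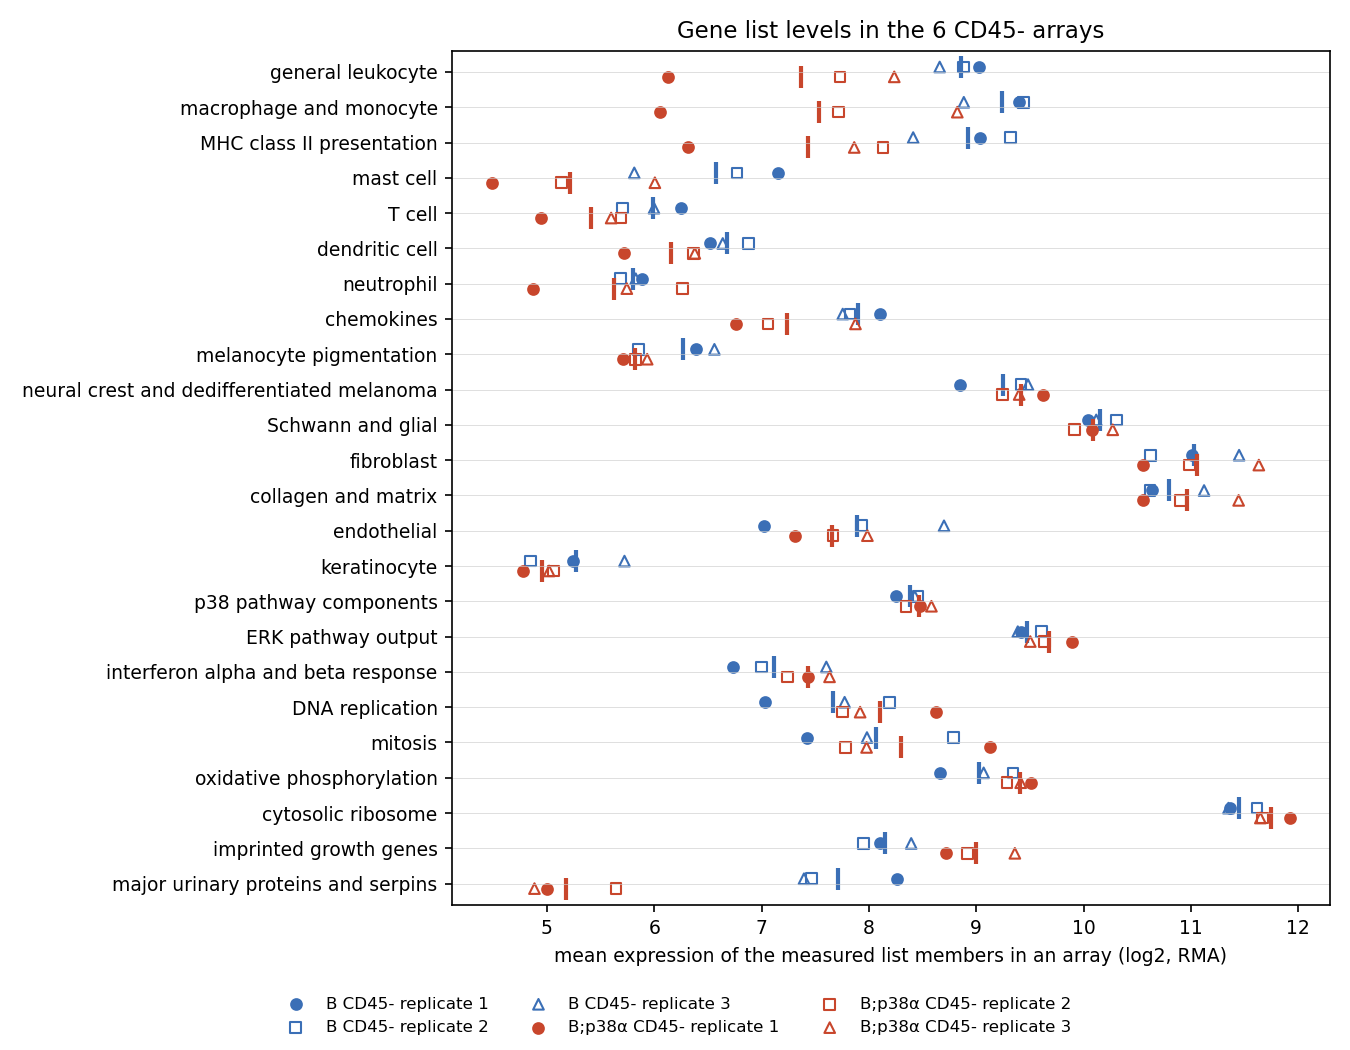
Mean log2 expression of the measured members of 24 gene lists (rows) in each CD45- array, with symbols and colours for array and genotype as in the plot of single genes and vertical ticks for group means. B;p38α arrays lie below B arrays for general leukocyte, macrophage, MHC class II, T cell and dendritic cell lists and for major urinary proteins and serpins, and above for imprinted growth genes and the cytosolic ribosome, while B replicate 1 is lowest for DNA replication and mitosis.

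Genes of the p38 pathway itself showed no common direction. Of 24 measured components, 12 had a higher and 12 a lower mean, none passed, and the median difference was 0.03. In this list 3 genes were separated upwards and 1 downwards, near the 10.6% and 5.36% of all genes. Upstream, the activating kinases Map2k3 and Map2k6 had differences of 0.13 and 0.65, and Map2k4 0.40, each with overlapping groups. The other p38 isoforms, Mapk11, Mapk12 and Mapk13, had differences of 0.35, 0.26 and 0.40. Mapk13 was read at 4.89, 5.47 and 5.53 in B arrays and at 5.77, 5.65 and 5.66 in B;p38α arrays, without overlap.

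The downstream kinases MK2 and MK3 had higher means. Mapkapk2, which encodes MK2, was read at 6.17, 6.14 and 5.82 in B arrays and at 6.56, 6.66 and 7.11 in B;p38α arrays, a difference of 0.73 without overlap. Mapkapk3, a related kinase, had a difference of 0.48, also without overlap. Among phosphatases that switch p38 off, Dusp10 had a difference of 0.93, or 0.55 without B CD45- replicate 1, and Dusp1 -0.17, both with overlap. Mef2c, a transcription factor that p38 activates and that macrophages and endothelium express, was read at 10.30, 9.93 and 10.77 against 8.79, 9.54 and 9.96, a difference of -0.90 with overlap.

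Inflammatory transcripts known to need p38 and MK2 were mixed. Of 19 measured, 7 had a higher and 12 a lower mean, with a median difference of -0.16, 0.10 without B CD45- replicate 1 and -0.05 with the general leukocyte level as a covariate. Il1b, an inflammatory cytokine of myeloid cells, was read at 8.50, 9.31 and 7.62 in B arrays and at 5.93, 6.61 and 7.56 in B;p38α arrays. It was the 1 separated member of 19, near the 5.36% of all genes separated downwards. Tnf was read at 8.31, 8.17 and 6.43 against 5.56, 6.15 and 6.58, with overlap. With a higher mean in B;p38α, the collagenase Mmp13 was read at 6.46, 5.42 and 7.43 against 5.84, 9.55 and 9.90, with overlap, and the cytokine Lif had a difference of 0.99. Il1b and Tnf were lowest in the array with the lowest leukocyte level, B;p38α replicate 1, and the part of that level in their difference was not tested.

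Of 17 output genes of the ERK branch, 2 were separated upwards, near the 10.6% of all genes. The mean was higher in 11, near the 55.8% of all genes, with a median difference of 0.21. With the general leukocyte level as a covariate this median was -0.28. Epha2, a receptor tyrosine kinase, was read at 7.85, 9.56 and 8.50 in B arrays and at 9.66, 9.75 and 9.98 in B;p38α arrays, a difference of 1.16 without overlap, and Dusp6, the feedback phosphatase of ERK, had 0.37 with overlap. Immediate early and dissociation genes, which respond to tissue digestion, had a median difference of -0.02 over 21 genes, and 0.14 without B CD45- replicate 1, with no separated member.

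Pigmentation genes had lower means in 15 of 18 measured members. In 5 of the 18 every B;p38α array was below every B array, beside 5.36% of all genes, none passed, and the median difference was -0.37. The other 3 members had higher means, with a largest difference of 1.41, and none of them was separated. Mitf, the master regulator of melanocytes, was read at 8.49, 8.25 and 8.89 in B arrays and at 7.50, 7.28 and 8.05 in B;p38α arrays, a difference of -0.93. Kit, the receptor for stem cell factor in melanoblasts and mast cells, was read at 7.41, 6.99 and 6.72 against 6.33, 5.85 and 5.72, a difference of -1.07. Dct, an enzyme of melanin synthesis, was read at 6.53, 5.01 and 7.57 against 4.50, 3.93 and 4.94, a difference of -1.92. In these 3 genes the groups did not overlap, and the list's average overlapped, at 5.85 to 6.56 in B arrays and 5.70 to 5.93 in B;p38α arrays. Tyr, the rate-limiting enzyme of melanin synthesis, was read at 4.67, 2.64 and 4.58 against 4.07, 3.07 and 4.20, so this defining marker was below every array's median in both groups. Mast cells also express Mitf and Kit, and macrophages Mitf, and both lists had lower means in the same arrays. With the general leukocyte level as a covariate the pigmentation median was -0.28, and the part of mast cells alone was not tested.

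Markers of dedifferentiated melanoma and neural crest were high in both genotypes. Sox10, a neural crest transcription factor, was read at 10.95, 11.37 and 10.66 in B arrays and at 11.78, 11.34 and 11.07 in B;p38α arrays. Ngfr, the low-affinity nerve growth factor receptor, was read at 10.34, 11.56 and 11.30 against 12.07, 11.70 and 12.21, a difference of 0.93 without overlap. Without B CD45- replicate 1 it was 0.56, and the list's median changed from 0.12 to 0.01. The Schwann and glial list averaged 10.05 to 10.31 in B arrays and 9.92 to 10.27 in B;p38α arrays.

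Stromal lists overlapped between genotypes. Fibroblast markers averaged 10.62 to 11.45 in B arrays and 10.56 to 11.63 in B;p38α arrays, and of 13 measured, Fbln1, an elastic fiber glycoprotein, had the largest difference, at 8.59, 9.99 and 10.18 against 11.06, 10.96 and 11.20 (1.48). Collagen and matrix genes had 11 of 21 higher, with a median difference of 0.05, and elastic fiber genes 11 of 14 higher, where 55.8% of all genes were, with a median of 0.44, and 0.26 without B CD45- replicate 1. With the general leukocyte level as a covariate the medians were 0.41 for fibroblast, 0.50 for collagen and 0.69 for elastic fiber genes. Fbln5, which assembles elastic fibers, went the other way at 10.23, 10.47 and 10.09 against 9.19, 9.14 and 9.63, a difference of -0.94 without overlap. Of 22 genes of matrix degradation, 6 were separated upwards, beside 10.6% of all genes, among them the stromelysin Mmp10, barely, at 4.60, 3.16 and 4.18 against 5.26, 4.61 and 5.41, and Adamts8, a matrix protease with a difference of 2.91, or 1.39 without B CD45- replicate 1. Mmp12, the macrophage elastase, had -2.28 and was separated downwards.

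Endothelial genes had lower means in 13 of 17, none separated, with a median difference of -0.25, -0.67 without B CD45- replicate 1 and -0.03 with the general leukocyte level as a covariate. That array was the lowest of the 6 for this list, at 7.03. Keratinocyte, hair follicle and fast muscle lists were low in all 6 arrays, at list levels of 4.78 to 5.95. One separated gene outside the lists' general pattern was Lgr6, a stem cell receptor for R-spondins listed with hair follicle genes, at 7.78, 8.18 and 7.77 against 9.33, 9.97 and 9.24, a difference of 1.60.

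Lists of growth and biosynthesis were compared with and without B CD45- replicate 1. Of 22 oxidative phosphorylation genes, 21 had a higher mean and 6 were separated upwards, where 55.8% and 10.6% of all genes did so. The median difference was 0.33, and 0.21 without that array. Cyc1, a subunit of complex III, was read at 6.38, 7.15 and 6.59 in B arrays and at 7.87, 7.55 and 7.70 in B;p38α arrays. All 14 measured genes of the cytosolic ribosome had a higher mean, 5 of them separated beside the same 10.6% of all genes, with a median of 0.28, and 0.27 without that array. Among DNA replication genes 19 of 21 had a higher mean, with a median difference of 0.45, and 0.08 without that array. The median of mitosis genes was 0.12, and -0.16 without it. Hjurp, the chaperone that loads the centromeric histone, was the 1 separated member of 21, a share below the 10.6% of all genes. Its values were 7.77, 8.73 and 9.15 against 10.49, 9.90 and 9.72. With the general leukocyte level as a covariate the medians were 0.19 for oxidative phosphorylation, 0.08 for the ribosome, -0.24 for DNA replication and -0.82 for mitosis. Interferon response genes had a median of 0.39, and 0.13 without it, with Ifit3 at 8.07, 7.96 and 8.95 against 8.98, 9.04 and 9.51. The genes Phlda3, a p53 target, at 7.78, 8.21 and 8.64 against 9.44, 9.75 and 9.70, and Slc7a11, the cystine transporter of the NRF2 response, at 9.15, 7.57 and 6.82 against 5.62, 5.80 and 5.94, were separated in opposite directions. Their lists had no common direction. Of 17 p53 target and senescence genes, 11 had a higher mean and 2 were separated each way, with a median of 0.16. Of 13 NRF2 targets, 7 had a higher mean and 1 was separated each way, with a median of 0.04. Over all genes, 10.6% were separated upwards and 5.36% downwards.

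**Figure D3:**
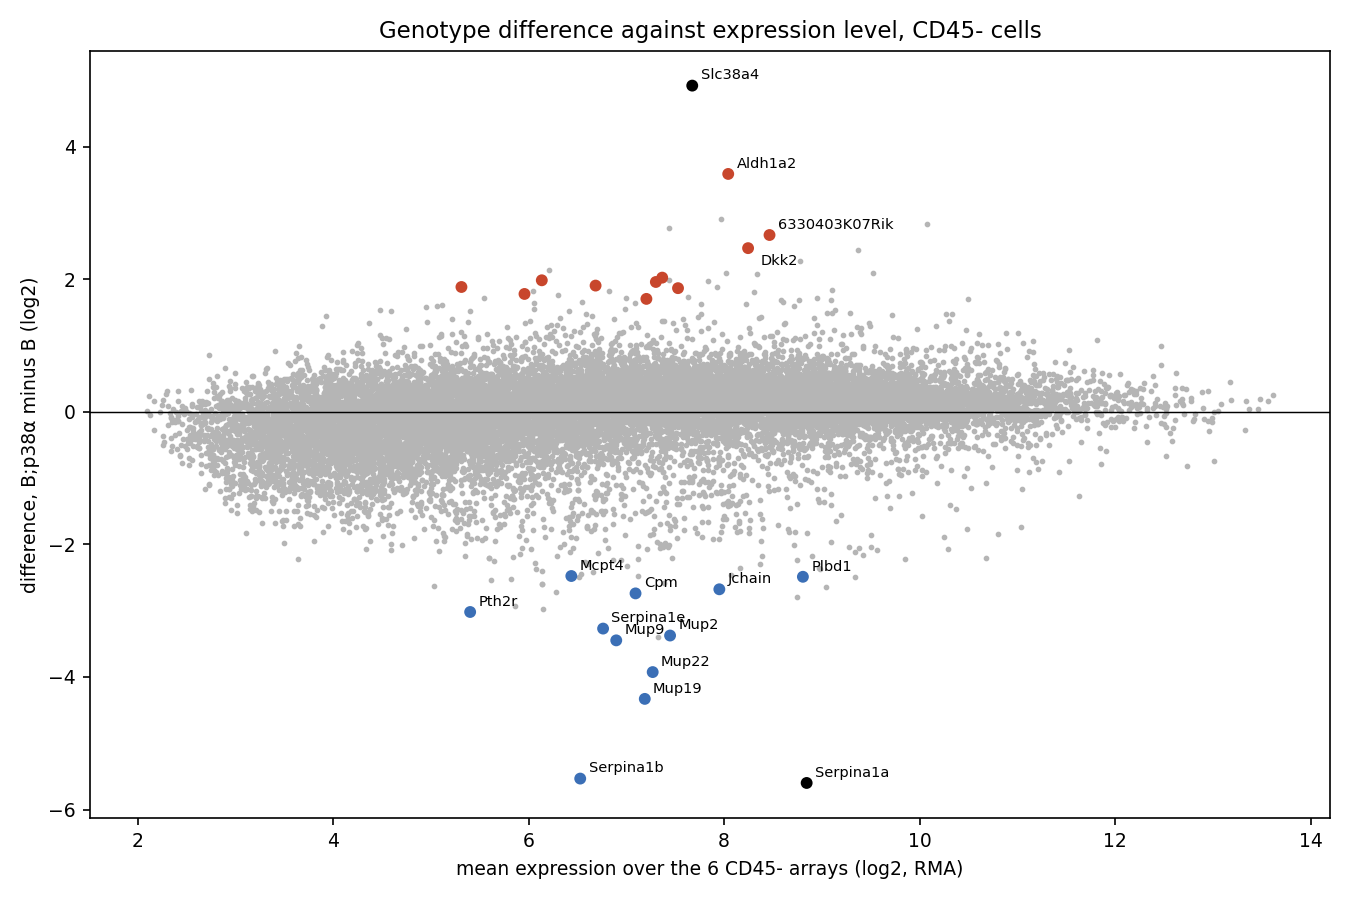
Genotype difference, B;p38α minus B in log2 units (y axis), against mean log2 expression over the 6 CD45- arrays (x axis) for 19504 genes, each a gray point. Black points are the 2 genes that passed, and red and blue points the other named genes with higher and lower means. The named Serpina1 and Mup genes lie at the bottom, between -3.27 and -5.60, and Slc38a4 at the top at 4.92.

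Whether the genotype difference was particular to CD45- cells was tested with interaction contrasts over all 20 arrays, taken as independent. The labels do not say whether CD45+ and CD45- arrays came from the same tumors, and such pairing was not modelled. Between B CD45- and B CD45+ arrays, correlations of deviations from group means ran from -0.57 to 0.62. Against CD45+ cells, no gene had an adjusted p under 0.05 in limma with Benjamini-Hochberg adjustment, the smallest adjusted p was 1.00, and 457 genes (2.34%) had an unadjusted limma p under 0.05. In CD45+ cells Slc38a4 had a difference of 4.09, at 4.84, 5.64 and 4.93 in B arrays and 9.57, 9.69 and 8.42 in B;p38α arrays. Serpina1a had -4.01 there, at 11.10, 10.62 and 10.58 against 7.04, 7.41 and 5.82. Peg3 had 1.65 in CD45+ cells beside 1.68 in CD45- cells. The tests did not separate the compartments for these genes, and a p that misses the threshold does not show that they are alike.

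The genes with the largest CD45- minus CD45+ contrasts at an unadjusted p under 0.01 included immune genes. Fcrls and Pik3ap1, both expressed by myeloid cells, had differences of -2.49 and -2.46 in CD45- cells and -0.07 and -0.16 in CD45+ cells. Ifnb1, the type I interferon, had 0.02 in CD45- cells and 2.48 in CD45+ cells. On the positive side, Cox6b2 had 1.56 and -0.52, and Upk2 1.04 and -0.56. For Fcrls and Pik3ap1, the lower leukocyte level of B;p38α CD45- arrays moved in the same direction, and its part was not tested.

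Against complete tumors, no gene passed either, with a smallest adjusted p of 0.161 in limma with Benjamini-Hochberg adjustment, and 1889 genes (9.69%) had an unadjusted limma p under 0.05. Slc38a4 had a difference of -0.80 (SE 1.17) in complete tumors and a contrast of 5.73 (SE 1.37), with an adjusted p of 0.472 in that fit. In B complete tumors it was read at 7.70, 6.91, 7.17, 6.51 and 10.05, and in B;p38α complete tumors at 3.96, 9.85 and 6.79, so both groups of complete tumors held high and low arrays. Aldh1a2 had -0.91 in complete tumors and a contrast of 4.50, and Peg3 had -0.43 and a contrast of 2.12 (SE 0.37), with an adjusted p of 0.245 (limma, Benjamini-Hochberg). Myh4, a fast muscle myosin, had a contrast of 4.15 that came from complete tumors, where its difference was -4.03, beside 0.12 in CD45- cells.

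Serpina1a in complete tumors was read at 10.06, 9.33, 5.62, 10.91 and 10.30 in B and at 5.60, 6.23 and 5.91 in B;p38α. One B complete tumor, replicate 3, was thus as low as the B;p38α tumors, and the groups overlapped there. The difference was -3.33 (SE 0.99) and the contrast with CD45- cells -2.27, with an adjusted p of 0.545 in limma with Benjamini-Hochberg adjustment. Mup19 had -2.15 in complete tumors and -3.57 in CD45+ cells.

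**Figure D4:**
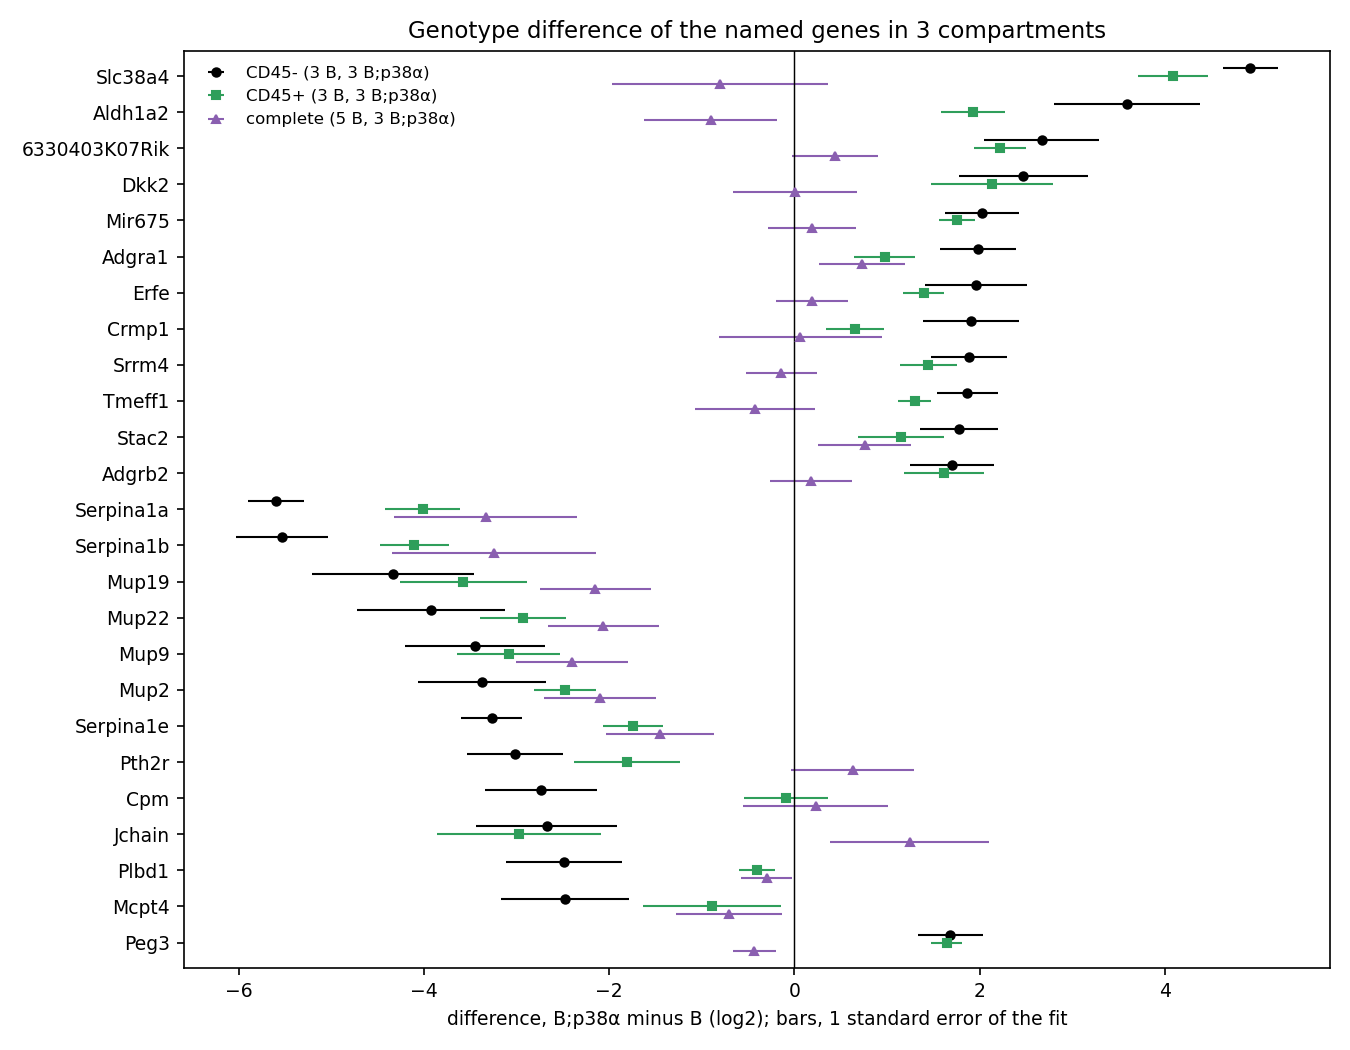
Genotype difference, B;p38α minus B in log2 units with bars of 1 standard error of each limma fit, for 24 named genes and Peg3 in CD45- cells (black circles), CD45+ cells (green squares) and complete tumors (purple triangles). Serpina1 and Mup genes lie left of 0 in all 3 compartments, while Slc38a4, Aldh1a2 and Peg3 lie right of 0 in CD45- and CD45+ cells and left of 0 in complete tumors.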

How the data were processed

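RNA of 20 samples was measured on expression arrays. The deposited values are log2 expression, which the authors obtained with RMA (background correction, normalization and probe summary), per the submitters' processing notes. No source used here names the set of arrays that went through RMA together. Of 21244 rows, 19570 had 1 gene symbol in the platform annotation, 0 had several and 1674 had none. Where a symbol was repeated, only its brightest row by the mean of the 20 arrays entered, so 66 rows were dropped and 19504 genes remained.

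Genotypes were compared with limma 3.58.1 in R 4.3.3 (lmFit and eBayes, Benjamini-Hochberg over all genes, threshold 0.05) on the 6 CD45- arrays. Contrasts with CD45+ cells and complete tumors used all 20 arrays in 6 groups. The members and gene lists (46 lists, 681 distinct genes measured) were chosen with earlier results of these data known, and lists were described by counts and medians with no test. Named genes were Mapk14, at most 12 higher and 12 lower genes, ranked by size of difference among those that passed and filled up with genes at an unadjusted p under 0.01 without overlap, the list members and p38 pathway genes with the largest differences, and up to 4 genes each way per contrast. Members named beyond the 4 with the largest differences in a list were chosen after their values were seen.

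On simulated data for the CD45- comparison (19504 genes, 100 changed per size) the fit recovered 9% of genes changed by 1 log2 unit, 66% by 2 and 90% by 4, with 10 false calls. The simulated noise was independent between arrays and equal in spread, so it held no outlying array like B CD45- replicate 1. The number of arrays was not varied. Alternatives changed the fit, filter, normalization, weights, covariates and arrays. Promoter and miRNA sequences came from RefSeq tables for GRCm38.p6, where 22 of 25 named genes had a promoter. Alignments used Biopython 1.88.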

Additional observations from a re-analysis of the deposited data

Results flagged for a closer look

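In 5 B complete tumors, 25 named genes were checked for an array far from the others, and 2 genes had one. In both it was replicate 5. Dkk2 was at 8.70 there, with the next array at 6.28, and Crmp1 at 8.75, with the next at 5.23. Chance flags about 1 in 20 groups of this size. The CD45- groups hold 3 arrays each and could not be checked in this way.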

How the results depend on the processing

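The count of 2 genes for CD45- cells was 0 with all 6 groups in a single fit, 4 with array weights, 1 with the Y-linked level as a covariate, 0 with the leukocyte level as a covariate, 0 with that covariate and without B CD45- replicate 1 (a fit added after seeing the data), and 0 to 4 with 1 array left out (leaving out B replicate 2 gave 1, B replicate 3 gave 0 and B;p38α replicate 2 gave 4). With the replicate number as a block it was 2 (Serpina1a and Serpina1b), with Slc38a4 at an adjusted p of 0.0591. Same-numbered arrays of the 2 genotypes had correlated deviations of -0.16, -0.17 and 0.22, so the numbers were not taken as pairs. The contrast with complete tumors had 0 genes, 27 with the replicate block, most of them vomeronasal receptor genes, and 0 to 1 with 1 array left out, where the 1 was Peg3 without B CD45- replicate 3. The contrast with CD45+ cells had 0 genes in every alternative run. Among lists whose array levels did not overlap between genotypes, medians that changed sign were B cell (0.027 with repeated quantile normalization, -0.258 to 0.013 with 1 array left out), unfolded protein response (-0.053 with quantile normalization), general leukocyte and macrophage (0.053 and 0.16 with the leukocyte covariate, where the former list is the covariate), and in the added fit general leukocyte 0.076, macrophage 0.14 and T cell 0.013. Over the alternatives, named genes kept their side of the threshold in 364 values, and 8 moved past it and 11 lost it. Only Slc38a4 and Serpina1a had passed, so all 11 losses were theirs. Most of the 364 values came from genes that had not passed. List medians moved by less than the spread between arrays in 677 values and by more in 51. For these changes the cause was not tested.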

Other observations

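Outside the gene names, 1 row with no symbol in the platform annotation separated the genotypes about as widely as Serpina1a. It was read at 8.42, 10.02 and 8.09 in B CD45- arrays and at 3.58, 3.15 and 2.95 in B;p38α CD45- arrays. The difference was -5.61 (SE 0.51), with an adjusted p of 0.0646 in limma with Benjamini-Hochberg adjustment when every row of the table was tested. A further unnamed row was read at 10.15, 8.89 and 9.15 against 5.30, 7.30 and 5.38, with B;p38α replicate 2 highest among the B;p38α arrays, the same order as the major urinary protein genes.

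The Y-linked level of B;p38α CD45- arrays was 3.32, 8.81 and 3.30, while in B;p38α CD45+ arrays it ran only from 2.75 to 3.23. No B;p38α CD45+ array therefore had a Y-linked level like that of B;p38α CD45- replicate 2. In B CD45- replicate 1 the level was 6.79, between the other B CD45- arrays at 8.60 and 2.79.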
